A study of Mus musculus with 6 samples.

Results

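The mitosis and cytokinesis genes described here are 42 genes that drive the division of the nucleus and of the cell body, chosen by name. A probeset, a small group of probes on 1 exon, was taken as a member's when the array annotation gave that member's symbol or an older synonym. Of the 42 genes, 40 had probesets, 789 in all, among 16263 genes and 208093 probesets with 1 gene symbol. Ccnb1 and Cenpf, which encode cyclin B1 and a kinetochore protein, had no probeset under this rule and were not analysed here.

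P19, an embryonal carcinoma line of the mouse, gives rise to neurons and later to glial cells when aggregated cells are exposed to retinoic acid (RA). RNA was extracted from untreated, undifferentiated cells (Day 0), from cells at the neuronal stage (Day 7) and from cells at the early glial stage (Day 10), in biological duplicate, giving 6 exon arrays. The Day 7 and Day 10 cultures had both been given 1 µM RA for 4 days. Each day is a culture of 1 cell line that can hold several cell types, and whether replicate 1 of different days shares an origin is not given in the sources used here.

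A cell enters mitosis when Cdk1 binds its cyclins, and Aurora and Polo-like kinases then build the spindle while condensin packs the chromosomes. The spindle checkpoint holds back the anaphase-promoting complex (APC) until the kinetochores of every chromosome are attached. Separase then cuts the cohesin that holds sister chromatids together, and a contractile ring and the midbody complete cytokinesis. Transcripts of most of these genes accumulate in cycling cells before division and are low in cells that have left the cell cycle, as neurons do. An array of bulk RNA measures the sum over a culture, so fewer dividing cells and less RNA per cell cannot be told apart.

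Both promoter and exon sequences bear on these genes. Many genes expressed in G2 and mitosis carry CCAAT boxes and, near the start site, a cell cycle genes homology region (CHR). The CHR was searched for here as TTTGAA and, in a variant form of the same element, as TTCGAA. The windows of the 3 members with the largest fall in any comparison among those with an entry are given from RefSeq (GRCm38.p6), 5′ to 3′ on the strand of the gene. Each begins 250 bases before the annotated start and ends at most 30 bases after the earliest start of the gene. Capitals mark matches to CCAAT and to both CHR motifs anywhere in the window and on either strand, so that ATTGG stands for CCAAT read on the opposite strand. A marked CHR motif need not lie near the start site. That of Bub1b lies far from it, before the marked ATTGG.
Espl1, chr15:102296043-102296283, plus strand: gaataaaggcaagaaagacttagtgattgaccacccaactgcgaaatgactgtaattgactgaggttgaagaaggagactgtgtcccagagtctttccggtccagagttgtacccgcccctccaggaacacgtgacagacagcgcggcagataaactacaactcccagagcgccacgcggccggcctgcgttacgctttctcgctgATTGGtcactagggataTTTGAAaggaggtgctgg
Bub1, chr2:127831830-127832109, minus strand: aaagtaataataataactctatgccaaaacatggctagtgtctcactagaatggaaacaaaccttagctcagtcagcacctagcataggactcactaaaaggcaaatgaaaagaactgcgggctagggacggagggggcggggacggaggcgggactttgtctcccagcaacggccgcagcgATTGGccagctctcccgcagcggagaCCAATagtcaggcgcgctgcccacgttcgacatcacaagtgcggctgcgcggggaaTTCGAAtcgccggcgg
Bub1b, chr2:118597961-118598231, plus strand: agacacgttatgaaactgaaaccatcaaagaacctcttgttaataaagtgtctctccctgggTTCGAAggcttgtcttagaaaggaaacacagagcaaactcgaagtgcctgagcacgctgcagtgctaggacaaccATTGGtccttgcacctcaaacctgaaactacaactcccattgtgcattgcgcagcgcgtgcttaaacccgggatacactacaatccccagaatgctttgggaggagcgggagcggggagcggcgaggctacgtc

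Promoter windows of 300 bases, from 250 before to 50 after the start, were found for 35 of the 42 genes (39 windows). CCAAT was present in 28 of the 39 windows (71.8%), against 37.4% of all 32851 windows. A CHR motif in either form was present in 29 of the 39 windows (74.4%), against 19.2% of all windows. Both kinds of motif lay together in 25 of the 39 (64.1%), against 7.52% of all. Neither kind of motif contains the other, but whether matches shared bases was not checked. Both strands were searched, and a match describes the letters of the window and nothing more.

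The study listed 1 exon of Cit and 1 exon of Cep55 as candidates for alternative use, chosen from these same arrays and from a search of transcript sequences. Cit encodes citron kinase, which organizes the contractile ring and the midbody, and also a form without the kinase domain that is known from neurons. Cep55 is a midbody protein that recruits the abscission machinery. The probeset sequences below are those of the study's supplementary list. The Cit gene lies on chromosome 5 and the Cep55 gene on chromosome 19.
Cit exon, 57 nt: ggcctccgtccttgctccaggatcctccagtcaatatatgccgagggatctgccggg
Cep55 exon, 38 nt: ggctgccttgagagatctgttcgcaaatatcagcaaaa

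The level of a gene on an array was the median over its probesets of log2(intensity + 16), and levels are given on that scale. The offset of 16 understates the changes of dim probesets. All 40 genes were among the 11384 that passed a filter on the mean level over the 6 arrays. A gene was called when limma gave an adjusted p under 0.05 over all tested genes together with a change of at least 2-fold. The 3 comparisons between days share arrays, so their results are not independent of each other.

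The Day 10 duplicates stood apart from each other. The median intensity was 183 and 204 on Day 0, 215.3 and 216.1 on Day 7, and 156.4 and 209.6 on Day 10. The 40 genes were higher in replicate 2 than in replicate 1 of Day 10 in 40 of 40 cases, by a median of 0.87 log2, while all tested genes differed by a median of 0.46. Between the Day 0 duplicates the median gap of the 40 genes was 0.22, and between the Day 7 duplicates it was -0.32, replicate 2 being the lower. The main counts of called genes on Day 10 are therefore also given without 1 of the Day 10 arrays.

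**Figure D1:**
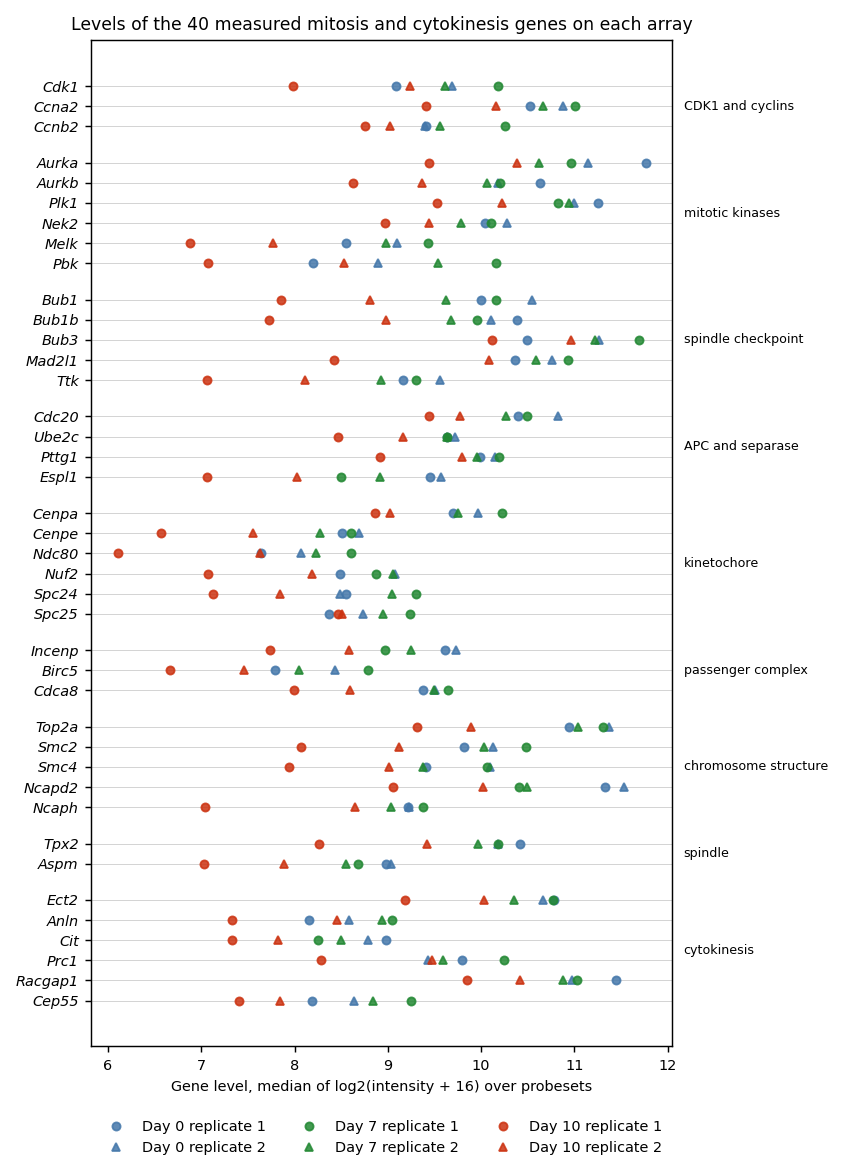
Level of each of the 40 measured genes (horizontal axis, median of log2(intensity + 16) over the probesets of the gene) on each of the 6 arrays, with genes grouped by role, circles for replicate 1 and triangles for replicate 2. Both Day 10 arrays lie to the left of both Day 7 arrays for all 40 genes, and replicate 1 of Day 10 is the lowest array for all but Spc25.

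On Day 7 limma called no member higher and none lower than on Day 0, while 11.2% of all tested genes were called higher and 4.5% lower. Without adjustment, 1 member was higher (2.5%) and 2 were lower (5%) at p under 0.05, against 18.9% and 9.23% of all tested genes. The median change of the members was -0.00, with 20 above 0 and 20 below, against a median of 0.10 over all tested genes. Once each array was centred on its median, 25 of the 40 were below 0. Both Day 7 arrays lay above both Day 0 arrays for 7 members (36.9% of all tested genes) and below them for 9 (25.9% of all). The number of arrays limits what could be detected for a single gene, since the 95% interval of Top2a, whose change was 0.02, was -0.69 to 0.72.

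The members with the largest changes on Day 7 are described here by rank. None of them was called under the main settings, and the spread among the members was not tested. Pbk, a mitotic kinase that binds PDZ domains, had the highest change. Its levels were 10.16 and 9.53 on Day 7, against 8.19 and 8.89 on Day 0, so the days did not overlap. The change was 1.31 ± 0.44 (SE, limma, adjusted p = 0.0602), just outside the threshold, and Pbk was called higher under 11 of 18 alternative settings, among them without either Day 10 array. Ncapd2, a subunit of condensin I, stood at the other end, with 10.41 and 10.49 on Day 7 and 11.33 and 11.53 on Day 0. Its change was -0.98 ± 0.35 (adjusted p = 0.0741), and it was called lower once each array was centred on its median. Espl1, which encodes separase, had 8.50 and 8.92 on Day 7, against 9.46 and 9.57 on Day 0. That change of -0.80 ± 0.36 had an adjusted p of 0.156 (limma).

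Further members were apart on the 2 days without passing the test. Spc24 had 9.30 and 9.04 on Day 7, against 8.55 and 8.48 on Day 0 (change 0.65, limma, adjusted p = 0.218). Its partner Ndc80 had 8.61 and 8.22 on Day 7, against 7.64 and 8.06 on Day 0 (change 0.56). Anln had 9.04 and 8.93 on Day 7, against 8.16 and 8.59 on Day 0 (change 0.61). In these 3 genes both Day 7 arrays were the higher, as in 17.5% of the members and 36.9% of all tested genes. In 3 others both were the lower, as in 22.5% of the members and 25.9% of all tested genes. Aurka had 10.97 and 10.62 on Day 7, against 11.76 and 11.14 on Day 0 (change -0.66, limma, adjusted p = 0.274). Incenp had 8.97 and 9.25 on Day 7, against 9.61 and 9.73 on Day 0 (change -0.56). Bub1b had 9.95 and 9.67 on Day 7, against 10.38 and 10.11 on Day 0 (change -0.43). For Bub3, with 11.70 and 11.22 on Day 7 and 10.49 and 11.26 on Day 0, the days overlapped.

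By role, the 3 measured genes of the Cdk1 and cyclin group had a median change of 0.51 on Day 7 and the 6 kinetochore genes one of 0.37. The median was -0.31 for the 2 spindle genes, -0.24 for the 5 checkpoint genes and -0.23 for the 6 mitotic kinases. None of these groups held a called gene, and differences between the groups were not tested. Cdk1 itself, the kinase that triggers mitosis, had 10.18 and 9.61 on Day 7 and 9.09 and 9.69 on Day 0, and the arrays of the 2 days overlapped. Its change of 0.51 had a 95% interval of -0.37 to 1.39.

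**Figure D2:**
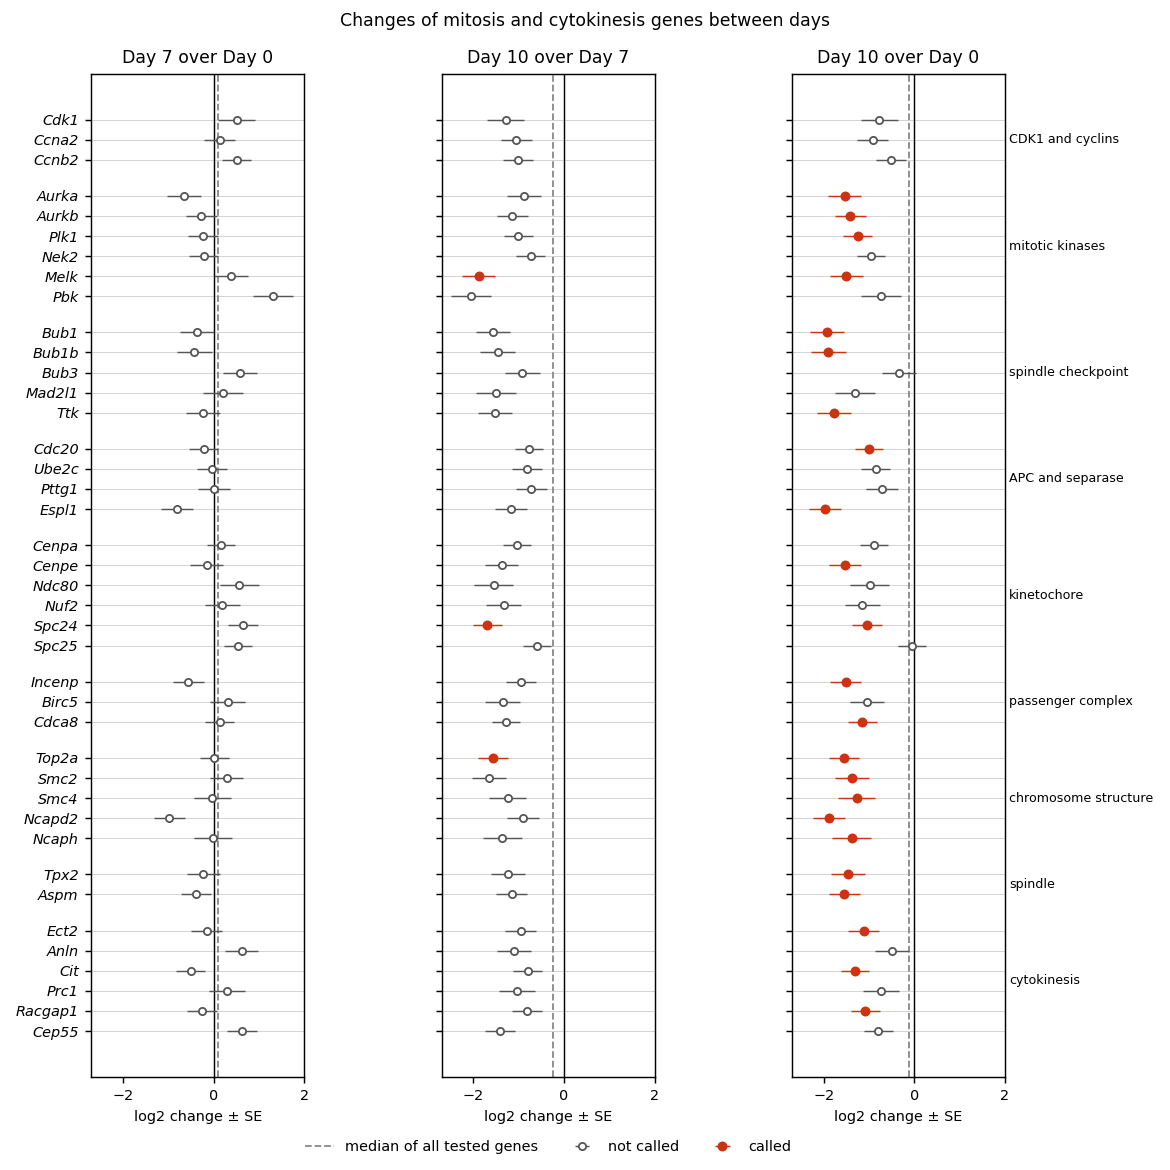
Change of each measured gene (log2, horizontal axis) with its SE from limma, for Day 7 over Day 0, Day 10 over Day 7 and Day 10 over Day 0, filled points marking called genes and the dashed line the median of all tested genes. The points straddle 0 in the first panel, all lie below 0 in the other 2 panels, and 0, 3 and 23 of the 40 genes are called.

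On Day 10 every measured member was below its Day 7 level. The median change of Day 10 over Day 7 was -1.16, against -0.25 over all tested genes, and the range over the members was -2.05 for Pbk to -0.60 for Spc25. Relative to the median of all tested genes, the median change of the members was -0.92. Both Day 10 arrays lay below both Day 7 arrays for 40 of 40 members, and for 37.4% of all tested genes. Limma called 3 members lower (Melk, Spc24 and Top2a) and none higher, while 0.334% of all tested genes were called lower and 0.36% higher. At an unadjusted p under 0.05, 38 of the 40 members (95%) were lower, against 14.2% of all tested genes.

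Melk, a kinase of the AMPK family that peaks in mitosis, had 6.88 and 7.77 on Day 10, against 9.43 and 8.98 on Day 7. The fall was -1.89 ± 0.37 (limma, adjusted p = 0.0345), or 3.70-fold. Spc24, a subunit of the NDC80 complex that holds microtubules at the kinetochore, had 7.12 and 7.84 on Day 10 and 9.30 and 9.04 on Day 7. It changed by -1.69 ± 0.33 with the same adjusted p of 0.0345. Top2a encodes the topoisomerase that untangles sister chromatids, and its levels were 9.31 and 9.89 on Day 10, against 11.31 and 11.04 on Day 7. The change of Top2a was -1.57 ± 0.33 (adjusted p = 0.0472). In each of these genes the lower Day 7 array was more than 1 log2 unit above the higher Day 10 array.

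Pbk had the largest change but was not called. Its levels were 7.08 and 8.53 on Day 10, against 10.16 and 9.53 on Day 7, a change of -2.05 ± 0.44 (limma, adjusted p = 0.0569), and it was called under 12 of 18 alternative settings. Smc2, a core ATPase of condensin, had 8.07 and 9.12 on Day 10 and 10.48 and 10.03 on Day 7, a change of -1.66 (adjusted p = 0.0643). Bub1, a checkpoint kinase of the kinetochore, had 7.86 and 8.81 on Day 10, against 10.17 and 9.62 on Day 7 (change -1.56, adjusted p = 0.0746). Cdk1 had 7.98 and 9.24 on Day 10, the second of these lying nearest to the 9.61 of Day 7 replicate 2, and its change of -1.29 ± 0.41 had an adjusted p of 0.142. Aurkb and Plk1 had changes of -1.14 (adjusted p = 0.113) and -1.01 (adjusted p = 0.146). Of the cytokinesis genes, Cep55 was at -1.42 (adjusted p = 0.0652) and Cit at -0.80 (adjusted p = 0.218), and their Day 10 arrays, like those of all members, lay below the Day 7 arrays.

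The count of 3 depended on single arrays and on the processing. It was 0 without replicate 1 of Day 10, 0 without replicate 1 of Day 7 and 33 without replicate 2 of Day 10, where 11.3% of all tested genes were called lower. With all 6 arrays kept, it was 0 with no filter on low levels, 13 with median polish and 24 with the mean of probesets as the gene level. The shares of all tested genes called under these settings are not given here, so these counts are a description only. The median change was -0.68 without replicate 1 of Day 10 and -1.64 without replicate 2, so that the direction of the group was the same with either array and its size was not.

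Set against undifferentiated cells, Day 10 gave more calls than in the other comparisons under the main settings, while with the mean of probesets the 24 of Day 10 over Day 7 stood beside 23 here. Limma called 23 of the 40 members lower on Day 10 than on Day 0 and none higher, while 7.43% of all tested genes were called lower and 7.27% higher. The median change of the members was -1.15, against -0.11 over all tested genes, and the range was -1.97 to -0.06. All 40 changes were below 0. When each array was centred on its median, 39 of 40 were, Spc25 being at 0.05. Both Day 10 arrays were below both Day 0 arrays for 34 of the 40 members (30.3% of all tested genes), and the 6 members that overlapped were Cdk1, Pbk, Bub3, Spc25, Anln and Prc1. Without replicate 1 of Day 10 the count of called members was 9 (2.99% of all tested genes), without replicate 2 it was 36 (18.2% of all), and without either Day 0 array it was 13.

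Of the genes of condensin and chromosome structure 5 of 5 were called. Without replicate 1 of Day 10 the calls were 2 of 5 (Ncapd2 and Top2a), and without replicate 2 they were 5. Ncapd2 had 9.06 and 10.02 on Day 10, against 11.33 and 11.53 on Day 0 (change -1.89 ± 0.35, limma, adjusted p = 0.00277). Top2a had 9.31 and 9.89 on Day 10, against 10.94 and 11.37 on Day 0 (change -1.55, adjusted p = 0.00647). Smc2, Smc4 and Ncaph had changes of -1.38, -1.27 and -1.38, with adjusted p between 0.0234 and 0.0482. The 2 spindle genes were also both called (only Aspm without replicate 1 of Day 10), Tpx2, which activates Aurora A, with -1.46 and Aspm, a spindle pole protein, with -1.55.

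All 5 checkpoint genes had a change below 0 on Day 10, and 3 of them were called lower. Bub1 had 7.86 and 8.81, against 10.00 and 10.55 on Day 0 (change -1.94 ± 0.38, limma, adjusted p = 0.00382). Bub1b, whose product BubR1 binds and inhibits the APC activator, had 7.72 and 8.98 on Day 10, against 10.38 and 10.11 on Day 0 (change -1.90 ± 0.39, adjusted p = 0.00523). Ttk, the kinase Mps1 that starts checkpoint signalling, had 7.06 and 8.12 on Day 10 and 9.16 and 9.56 on Day 0 (change -1.77, adjusted p = 0.00615). These are falls of 3.83-fold, 3.72-fold and 3.41-fold. Mad2l1 was at -1.31 (adjusted p = 0.0621), with Day 10 arrays of 8.42 and 10.08 that were 1.66 log2 units apart. Bub3, which brings Bub1 and BubR1 to the kinetochore, was at -0.34.

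Of the APC and separase group, Espl1 had the largest fall of all members in this comparison. It had 7.06 and 8.03 on Day 10, against 9.46 and 9.57 on Day 0, a change of -1.97 ± 0.36 or 3.91-fold (limma, adjusted p = 0.00243). Cdc20, the APC activator of mitosis, was called at the edge of the 2-fold threshold (adjusted p = 0.0466). Ube2c, which hands ubiquitin to the APC, and Pttg1, the securin that inhibits separase, were at -0.86 and -0.71 and were not called. Without replicate 1 of Day 10, Espl1 was the 1 called gene of these 4, and without replicate 2 all 4 were called.

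The mitotic kinases gave 4 calls of 6, but 0 of 6 without replicate 1 of Day 10 and 6 of 6 without replicate 2. Aurka and Aurkb encode Aurora A of the spindle poles and Aurora B of the chromosomal passenger complex, and both fell, with changes of -1.54 (adjusted p = 0.0133) and -1.41 (adjusted p = 0.013) in limma. Aurkb had 8.63 and 9.36 on Day 10, against 10.63 and 10.18 on Day 0. Plk1, the Polo-like kinase, had 9.52 and 10.23 on Day 10, against 11.26 and 11.00 on Day 0, a change of -1.25 ± 0.33 (adjusted p = 0.0206). Melk was 2.84-fold lower (adjusted p = 0.014). Nek2, a kinase of centrosome separation, was at -0.96 with an adjusted p of 0.0573, and Pbk was at -0.74, its Day 10 replicate 2 (8.53) lying between the 2 Day 0 arrays (8.19 and 8.89).

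Among the partners of Aurora B in the passenger complex, Incenp was called with -1.51 and Cdca8, which encodes borealin, with -1.15. Birc5, which encodes survivin, was at -1.05 with an adjusted p of 0.0804 (limma). Incenp alone of these was called without replicate 1 of Day 10. At the kinetochore 2 of 6 measured genes were called (0 without replicate 1 of Day 10 and 4 without replicate 2), Cenpe, a kinesin motor, with -1.54 and Spc24 with -1.04. Ndc80, Nuf2 and Spc25 form the NDC80 complex with Spc24 and were at -0.99, -1.15 and -0.06. Spc25 had 8.47 and 8.51 on Day 10, against 8.37 and 8.73 on Day 0, the smallest change among the members. Cenpa, the centromeric histone H3 variant, was at -0.89. Of the Cdk1 and cyclin group none of 3 was called, and 2 were without replicate 2 of Day 10. Cdk1, Ccna2 and Ccnb2 were at -0.78, -0.92 and -0.51, and the 95% interval of Cdk1 was -1.66 to 0.11.

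The cytokinesis genes gave 3 calls of 6, but only 1, Cit, without replicate 1 of Day 10 and 6 without replicate 2. Cit had 7.32 and 7.83 on Day 10, against 8.98 and 8.79 on Day 0 (change -1.31 ± 0.32, limma, adjusted p = 0.0133). Ect2, which activates RhoA at the equator, was called with -1.12 and Racgap1, the centralspindlin subunit that recruits Ect2, with -1.08. Cep55 was at -0.79, with levels of 8.19 and 8.64 on Day 0, 9.25 and 8.84 on Day 7, and 7.40 and 7.84 on Day 10. Its level was thus higher on both Day 7 arrays than on any other array, while its change of 0.63 on Day 7 had an adjusted p of 0.235. Prc1, which bundles the midzone microtubules, and Anln, the ring scaffold anillin, were at -0.73 and -0.48.

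The calls of Day 10 against Day 0 differed in how often they held. Over 18 alternative settings, Aspm, Bub1, Bub1b, Espl1, Incenp, Ncapd2 and Ttk were called in all 18. Spc24 was called in 6, Cdc20 and Racgap1 in 7, Ect2 in 9, Ncaph in 12 and Smc4 in 13.

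Other genes of cell division were counted from lists drawn up by function. On Day 10 against Day 0, 43 of 108 other mitosis genes (39.8%) were called lower and none higher, with a median change of -0.95. Over all tested genes 7.43% were called lower in this comparison, the share to set beside each list below. The shares of all tested genes without 1 Day 10 array are those given above for the members. Without replicate 1 of Day 10 the calls were 12 of the 108, and without replicate 2 they were 74. Of 11 mitotic kinesins, the motors of the spindle, 9 were called lower (median -1.47; 5 without replicate 1 of Day 10 and 11 without replicate 2), among them Kif15 (-2.13), Kif20b (-1.83), Kif11 (-1.71) and Kif4 (-1.52). Of 25 other kinetochore genes 12 were called (1 without replicate 1 of Day 10), led by Zwilch (-1.74) and Sgo1 (-1.71). Of 17 genes of mitotic entry 6 were called (1 without replicate 1 of Day 10), including Ccnf (-2.22), which encodes cyclin F, and the transcription factors Mybl2 (-1.89) and Foxm1 (-1.44). DNA replication genes, which act in S phase, gave 17 calls of 32 (median -1.16; 5 without replicate 1 of Day 10 and 26 without replicate 2), including Pole (-1.88) and Cdc6 (-1.86).

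Of 14 other APC genes 2 were called lower (Fbxo5 and Anapc1; 0 without replicate 1 of Day 10), and the median was -0.08. Fbxo5 encodes Emi1, an inhibitor of the APC. On Day 10 against Day 7, all 108 other mitosis genes and all 32 replication genes were below 0, with medians of -0.96 and -1.05. Without replicate 1 of Day 10, 98 of the 108 and 31 of the 32 were below 0. Limma called 1 of the 108, Mki67, which encodes the proliferation antigen Ki-67 (-2.15, adjusted p = 0.0273), and 2 of the 32, Cdc6 and Tyms, with none of either list called without replicate 1 of Day 10 and 64 and 23 without replicate 2. On Day 7 against Day 0, 1 other mitosis gene was called higher (Anapc4, an APC subunit, 1.24), 1 was called lower (Psrc1, a spindle protein, -1.22) and no replication gene was called. Over all tested genes, 11.2% were called higher and 4.5% lower on Day 7 against Day 0. On Day 10 against Day 7, 0.334% of all tested genes were called lower.

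**Figure D3:**
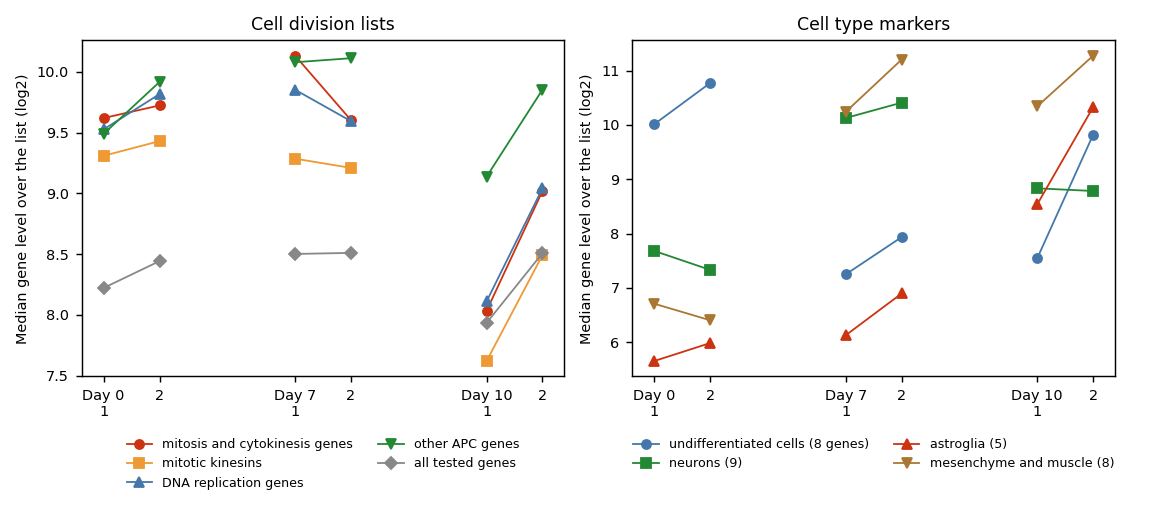
Median level over each list of genes (log2, vertical axis) on each array, with lines joining the duplicates of a day, for cell division lists (left) and for markers of cell types (right). The mitosis and cytokinesis genes are at 9.62 and 9.72 on Day 0, 10.1 and 9.60 on Day 7 and 8.03 and 9.02 on Day 10, and the duplicates of Day 10 are also far apart in the markers of undifferentiated cells and astroglia.

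Markers of cell types moved with the days and, on Day 10, between the duplicates. The median of 8 measured markers of undifferentiated cells was 10.0 and 10.8 on Day 0, 7.25 and 7.94 on Day 7, and 7.55 and 9.82 on Day 10. Their summed intensity was 16527 and 19328 on Day 0, 2135 and 3040 on Day 7, and 2156 and 8220 on Day 10. Pou5f1, which defines pluripotent cells, was at 12.07 and 12.54 on Day 0, 7.73 and 9.36 on Day 7, and 8.39 and 11.18 on Day 10. Dppa5a and Zfp42 of that list did not pass the filter on low levels. Of the 6 tested markers, 4 were called lower on Day 7 against Day 0 (4.5% of all tested genes). On Day 10 against Day 0, 3 of the 6 were called lower (7.43% of all), and 1 was above 0, at 0.48. The Day 10 array with the higher mitosis genes was thus also the one with the higher level of these markers.

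The 9 neuronal markers, such as Dcx and Tubb3, summed to 2770 and 2203 on Day 0, 14723 and 16794 on Day 7, and 7138 and 4986 on Day 10. Of these, 8 were called higher on Day 7 against Day 0 (11.2% of all tested genes). On Day 10 against Day 0, 6 were called higher (7.27% of all), and 1 was below 0, at -0.85, and not called. The 5 measured astroglial markers summed to 1079 and 1295 on Day 0, 1055 and 1517 on Day 7, and 1557 and 4256 on Day 10, and of them Aqp4 and S100b did not pass the filter. Gfap, the intermediate filament of astrocytes, was at 5.65 and 5.99 on Day 0, 6.13 and 6.90 on Day 7, and 9.55 and 10.50 on Day 10. The 3 astroglial markers that passed the filter did not move together. On Day 7 against Day 0, 1 was called higher (4.38) and 1 lower (-1.92), neither being Gfap. On Day 10 against Day 0, 2 were called higher and 1, at -0.53, was not called. Markers of mesenchyme and muscle, 8 genes, summed to 1911 and 2068 on Day 0, 20829 and 23111 on Day 7, and 11307 and 17482 on Day 10. Of oligodendrocytes, endoderm, and blood and endothelium, 12 markers were measured and their summed intensities were at most 757 on every array. Among those that passed the filter, Kdr, a receptor of endothelial cells, changed most, with 8.98 and 9.31 on Day 7 and 5.43 and 6.08 on Day 0. Of the 5 measured markers of blood and endothelium, only Kdr passed the filter. The median of that list was 5.811 and 5.996 on Day 0, and 6.309 and 6.006 on Day 7. The change of Kdr is therefore that of 1 gene and not of its list. The part of these changes in the levels of the mitosis genes was not tested.

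Exon use was measured by the splicing index (SI), the log2 change of a probeset minus that of its gene, with the study's threshold of a 2.55-fold change relative to the gene. Of the 779 probesets of the 40 genes that passed the filters, 5 had an SI past this threshold in either direction on Day 7 (0.642%), against 0.878% of all 116818 tested probesets. Within 0.5 of 0 lay 88.3% of the members' probesets and 87.3% of all. Limma called no probeset of any gene, 0 percent of those tested, on Day 7 and again 0 percent on Day 10. The lowest adjusted p among the members on Day 7 was 0.254, for the Cit exon that the study chose on these arrays. Without the exons of Cit and Cep55 chosen by the study, 4 of 777 probesets were past the threshold on Day 7 (0.515%). The lowest adjusted p of limma was then 0.427. At an unadjusted p under 0.05, 27 of the 779 differed on Day 7 (3.47%), against 4.66% of all. On Day 10, 15 of the members' probesets were past it (1.93%), against 1.25% of all. Without replicate 1 of Day 10 these were 7 of 779 (0.899%, against 0.925% of all), and without replicate 2 they were 82 (10.5%, against 5.79% of all). Without either Day 10 array the Day 7 number was again 5.

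The Cit exon whose sequence is given above had the largest SI of the members' probesets. Its intensity was 1399 and 2472 on Day 0, 54.6 and 61.0 on Day 7, and 121 and 86.5 on Day 10. The mean intensity, with no offset, was 33.5-fold lower on Day 7 than on Day 0. On the scale of log2(intensity + 16) the probeset changed by -4.67 and the gene as a whole by -0.51, an SI of -4.16 on Day 7. The SI on Day 10 was -2.68. The study chose this exon on these arrays, so the values are a description and not a test. The neighbouring probesets named by the study had an SI of 0.31 and -0.17 on Day 7. Of the other 53 tested probesets of Cit, 44 lay within 0.5 of 0 on Day 7 and the whole range was -0.57 to 1.56.

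The upper end of that range was 1 other probeset of Cit. Its intensity was 87.8 and 121 on Day 0, 240 and 222 on Day 7, and 162 and 255 on Day 10. It was higher on the later days than on Day 0, while 45 of the 53 probesets were lower on Day 7 than on Day 0, and it had an SI of 1.56 on Day 7 (limma, adjusted p = 0.427) and 2.19 on Day 10 (adjusted p = 0.453).

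The Cep55 exon had a smaller SI than that of Cit. Its intensity was 913 and 691 on Day 0, 467 and 495 on Day 7, and 166 and 353 on Day 10. The other probesets of Cep55 were mostly higher on Day 7 than on Day 0, 11 of 13, so that the SI of this exon was -1.34 on Day 7 and -0.85 on Day 10. The next lowest SI in the gene on Day 7 was -0.86, and the neighbouring probesets named by the study were at -0.76 and 0.04. The array annotation used here gave this probeset no symbol, and its gene was taken from the study's list. The highest SI in Cep55 was 1.36, for a dim probeset at 23.3 and 84.7 on Day 0 and 372 and 145 on Day 7, whose duplicates differed more than 2-fold on both days. The other probesets past the threshold on Day 7 were 1 probeset of Bub1b (1.65) and 1 of Espl1 (1.43), whose Day 0 duplicates were 11.9 and 106, and 124 and 703.

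**Figure D4:**
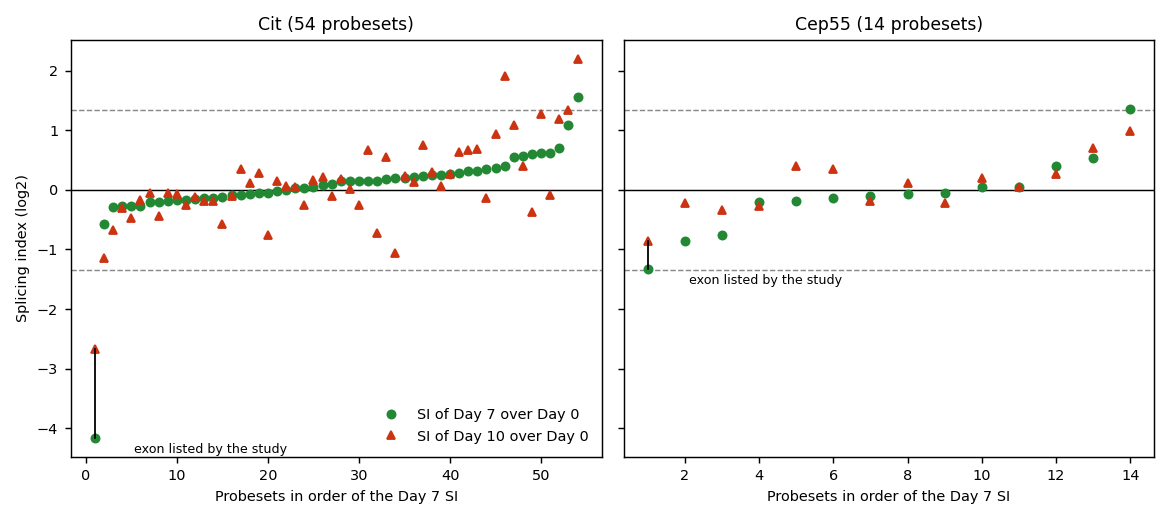
Splicing index (log2, vertical axis) of each tested probeset of Cit and Cep55 in the order of its Day 7 value, circles for Day 7 over Day 0 and triangles for Day 10 over Day 0, with dashed lines at a 2.55-fold change in either direction. The exon of Cit listed by the study stands alone at -4.16 and -2.68, while that of Cep55, at -1.34 and -0.85, is the lowest of 14 probesets of its gene.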

How the data were processed

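Per the study's methods, the authors hybridized RNA to Mouse Exon 1.0 ST arrays, normalized by sketch, and summarized core probesets with PLIER. RMA is the method, and Affymetrix Expression Console the software, given in the processing notes of the submitters. The deposited values are intensities of 228090 probesets on a linear scale, not log2 values. Of these, 208093 carried 1 gene symbol, 4327 several and 15670 none, and 2131 symbols were updated through synonyms in GRCm38.p6, used only for names. Columns not mapped to a sample numbered 0.

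Here log2(intensity + 16) was taken, and gene levels were medians over probesets. Genes whose mean level reached the 30th percentile entered limma 3.58.1 in R 4.3.3 on the 6 arrays with Benjamini-Hochberg adjustment. The splicing index was tested where a gene had 4 or more probesets. Such a gene had to reach the 45th percentile before and after RA (Days 0 and 7), and its probeset the 25th percentile on 1 of these days. The fits were run on simulated data with known changes. For the splicing index the simulation held fewer probesets than the data and a fixed noise. It therefore does not show how many true exon changes would be called here. With 2 arrays a day, p-values rest on 3 residual degrees of freedom plus limma's shared variance.

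The members, lists and tests were chosen with earlier results of these data known. Members were named by a rule: the 6 largest changes in each direction per comparison, all calls where few, up to 4 called genes a list, and Cdk1, Ccnb1, Top2a, Aurkb, Plk1, Cit and Cep55. Spc25, Cdc20 and other members given by a single change complete each role. Alternatives covered the probeset summary, offset, filter, quantile normalization, centring, fits of 2 days, the replicate number as a block, trend and robust fits, diffSplice, and leaving out each array. Detection p-values, the authors' gene-level intensities, probeset coordinates and cross-hybridization annotation were not used here.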

Additional observations from a re-analysis of the deposited data

How the results depend on the processing

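The number of arrays limits these results, and intensities give no counting depth. Main counts of called members were 0 higher and 0 lower for Day 7 over Day 0, 3 lower for Day 10 over Day 7 and 23 lower for Day 10 over Day 0. The count for Day 10 over Day 7 was 13 with median polish, 24 with the mean of probesets, 11 with a filter at the 50th percentile, 9 with only the 2 days compared, 6 after quantile normalization, 5 with centring on the array median, 5 with trend and robust fits, and 0 with no filter, which tests more genes. Leaving out 1 array gave 0 to 33. For Day 10 over Day 0 it gave 9 to 36. For Day 7 over Day 0 it gave 0 to 1 called higher, and 1 (Pbk) was called with median polish, the mean of probesets, the 50th percentile filter, quantile normalization, centring and only 2 days. Centring also called 1 lower (Ncapd2). The counts of roles, of other cell division lists and of members' exons without 1 Day 10 array were added after the data were seen. Where a count of called members stands without the share of all tested genes under the same setting, that share is not given here. Such a count is a description only, since a setting can change the calls of all genes. Where no value shows it, the cause was not tested.

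Top2a on Day 7 over Day 0 was at 0.02, and was -0.16 with centring. Leaving out 1 array gave -0.20 to 0.23, with -0.20 without replicate 1 of Day 0 and -0.12 without replicate 1 of Day 7. Centring moved the share of higher genes among all calls from 71.4% to 55.9% for Day 7 over Day 0, and from 51.9% to 79.1% for Day 10 over Day 7.

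The replicate numbers do not mark a stated pairing. The correlation of same-numbered deviations was -0.08 for Day 7 with Day 0, 0.33 for Day 10 with Day 0 and -0.03 for Day 10 with Day 7. With the replicate number as a block, 22 members were called lower for Day 10 over Day 7, 26 for Day 10 over Day 0, and 1 higher for Day 7 over Day 0. The shares of all tested genes called with this block are not given here.

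Of the tested probesets of Cit and Cep55, 3 were past the 2.55-fold threshold of the SI on Day 7 and 3 on Day 10. With an offset of 50 the Day 7 number was 1, and with an offset of 1 the Day 10 number was 6. Leaving out 1 array gave 1 to 7 on Day 7 and 3 to 7 on Day 10. diffSplice, which tests probesets against the rest of their gene, called 1 of them on Day 7 and 3 on Day 10, where limma called 0. The probesets counted include the exons that the study chose on these same arrays. The share of all probesets called by diffSplice is not given here, so its counts are a description only.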
